A study of Mus musculus with 39 samples.

Results

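The genes described here are the 270 steadily expressed protein-coding genes of mouse chromosomes 3 and 13 in C2C12 cells, 147 on chromosome 3 and 123 on chromosome 13. C2C12 is a mouse myoblast line that fuses into multinucleated myotubes when serum is reduced. A gene was taken as steady where its mean in wild-type (WT) cells was at least 5 CPM (counts of a gene scaled to a common library total) on each of 5 days and the largest of these 5 means was at most 1.5 times the smallest. The 270 genes are part of 769 protein-coding genes of both chromosomes that reached 5 CPM on every day, and of 3339 steady genes on all chromosomes. Only WT libraries entered the steadiness rule, but the chromosomes were picked because their knockout to WT ratio was already known to be low, so that ratio is described here without a test. Just inside the limit lay Cdc42se1 at 1.4963 and Rit1 at 1.4985 on chromosome 3, and Ercc8 at 1.4989 and Zkscan3 at 1.499 on chromosome 13. Just outside it lay Pla2g12a at 1.51, Prpf3 at 1.51, Zfyve16 at 1.503 and Gdi2 at 1.5038.

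Stranded mRNA libraries were sequenced from WT C2C12 cells and from Flnc knockout (KO) C2C12 cells on days 0, 1, 2, 4 and 6 of differentiation. The knockout was made with a CRISPR guide to the first exon of Flnc, which encodes filamin C, an actin crosslinker of the muscle Z-disc. Each of the 10 groups held 4 libraries, numbered 1, 3, 4 and 5, except the KO group of day 2, which held 3. The labels used here do not say whether libraries of one group came from separate cultures or whether the KO cells were 1 clone, so p-values measure only the spread between these samples, which may be technical.

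Genes with a steady level across differentiation serve many housekeeping tasks, such as translation, protein breakdown, secretion and respiration, and their RNA level depends on gene copy number as well as on transcription and decay. Cultured cell lines often carry extra or missing chromosomes, and the RNA of genes on such a chromosome tends to shift together by a modest factor.

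Library totals ran from 6838281 to 28902526 counts. Flnc, which lies on another chromosome, checked the labels: it ran from 419 to 2207 CPM over 20 WT libraries and from 16.0 to 159 CPM over 19 KO libraries, without overlap. The myogenic genes Myod1, Des and Cdh15 were present in all 39 libraries, Epcam was at 0 in all, and Ptprc and Pecam1 stayed at or under 0.25 and 0.50 CPM. The fat cell gene Adipoq reached 0.225 CPM in WT and 2.73 CPM in KO. Myog had a median of 559 CPM in WT and 116 CPM in KO, and Myf5 one of 64.1 and 30.0 CPM. The medians of Cdh15 and Des were lower in KO as well. Myod1 went the other way, with a median of 125.0 CPM in WT and 236.3 CPM in KO. The part of these differences in the results was not tested. WT day 0 replicate 4 and KO day 1 replicate 3 stood apart from the other libraries of their groups, and values without them are given where they matter.

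Upstream sequence is shown for 4 genes, on each chromosome the lowest member in the KO cells among those with non-overlapping libraries and a member near the chromosome's median, to show the kind of promoter that these steadily expressed genes have. Each run is the 250 bases before the RefSeq start on the gene's own strand in GRCm38.p6, and capitals mark GGGCGG or CCGCCC (a GC box on either strand), CCAAT and TATAAA where they occur. The Nes run is chr3:87970843-87971092 on the plus strand, Alg5 is chr3:54735289-54735538 on the plus strand, Cltb is chr13:54611374-54611623 on the minus strand and Zcchc9 is chr13:91807697-91807946 on the minus strand.
Nes: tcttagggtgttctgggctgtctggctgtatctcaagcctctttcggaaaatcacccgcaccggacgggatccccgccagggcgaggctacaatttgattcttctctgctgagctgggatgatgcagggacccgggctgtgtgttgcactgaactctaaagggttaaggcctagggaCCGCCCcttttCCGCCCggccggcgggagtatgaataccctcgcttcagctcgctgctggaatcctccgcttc
Alg5: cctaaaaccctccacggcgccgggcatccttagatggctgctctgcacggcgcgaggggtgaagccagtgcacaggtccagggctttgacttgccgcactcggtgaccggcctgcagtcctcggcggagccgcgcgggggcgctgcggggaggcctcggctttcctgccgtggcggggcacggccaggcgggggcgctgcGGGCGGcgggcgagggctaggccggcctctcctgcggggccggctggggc
Cltb: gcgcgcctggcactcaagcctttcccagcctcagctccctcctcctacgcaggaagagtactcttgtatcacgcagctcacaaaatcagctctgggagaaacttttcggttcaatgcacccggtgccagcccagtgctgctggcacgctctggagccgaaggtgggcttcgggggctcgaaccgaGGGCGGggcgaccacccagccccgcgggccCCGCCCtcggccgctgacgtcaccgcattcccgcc
Zcchc9: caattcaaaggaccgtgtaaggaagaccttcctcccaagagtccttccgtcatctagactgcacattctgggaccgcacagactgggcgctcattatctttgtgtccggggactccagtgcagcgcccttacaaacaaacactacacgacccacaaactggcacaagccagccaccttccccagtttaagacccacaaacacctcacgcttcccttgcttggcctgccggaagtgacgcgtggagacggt

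The Nes run held 15 CpG dinucleotides and 2 GC boxes, Alg5 held 29 and 1, Cltb held 21 and 2, and Zcchc9 held 12 and none. RefSeq promoters were matched for 229 of the 270 members. Their median was 19 CpG per 250 bases, against 18 in 2109 steady genes of the reference autosomes and 11 in all 16238 matched genes. GGGCGG on either strand was found in 62.4% of the members, 63.1% of the steady reference genes and 44.9% of all matched genes. CCAAT was found on either strand in 36.7%, 34.1% and 36.1% of these sets, and TATAAA in 5.24%, 4.46% and 11.9%. By these letters the members resembled steady genes elsewhere, and both lay above all genes in CpG and below them in TATAAA.

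Steady genes of both chromosomes were lower in the KO cells on every day, by 21.4% on chromosome 3 and 20.4% on chromosome 13 over the days. For each library, the log2 ratio of every member to the WT mean of the day was taken after adding 0.5 CPM, the median over a chromosome was formed, and the median over the steady genes of 15 reference autosomes (all but 3, 4, 13 and 16) was subtracted. On chromosome 3 this centred median was -0.36 ± 0.10 (SD, n = 4) on day 0, -0.35 ± 0.08 (n = 4) on day 1, -0.37 ± 0.08 (n = 3) on day 2, -0.33 ± 0.13 (n = 4) on day 4 and -0.32 ± 0.06 (n = 4) on day 6. On chromosome 13 it was -0.34 ± 0.07 (n = 4), -0.29 ± 0.08 (n = 4), -0.35 ± 0.06 (n = 3), -0.36 ± 0.09 (n = 4) and -0.31 ± 0.04 (n = 4) on the same days. The means over the days were -0.35 and -0.33. No day stood out on either chromosome, since the day means differed by no more than libraries of a single day did. In bulk RNA, fewer cells expressing a gene and less RNA per cell cannot be told apart.

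**Figure D1:**
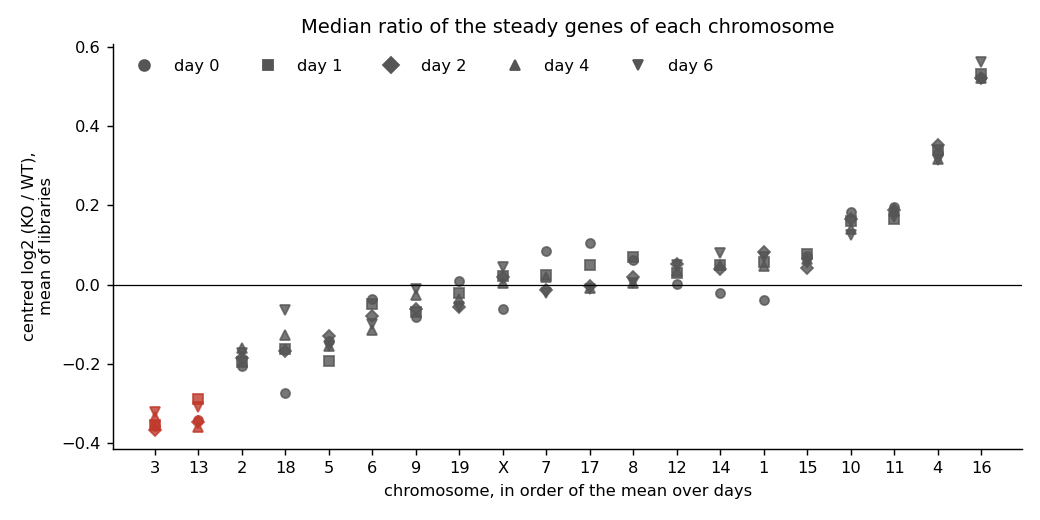
Centred median log2 ratio of KO to WT over steady genes, for each of 20 chromosomes, in order of the mean over days, with 1 point per day (mean of the KO libraries). Chromosomes 3 and 13 are the lowest, with means over the days of -0.35 and -0.33, and chromosomes 4 and 16 are the highest at 0.33 and 0.53.

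Chromosomes 3 and 13 held the lowest places among the 20 chromosomes on all 5 days, as shown by the plot of chromosome medians. The next lowest over the days were chromosome 2 at -0.18, chromosome 18 at -0.16 and chromosome 5 at -0.15. Chromosome 2 was at 0.00 in KO replicate 1 and between -0.30 and -0.21 in the others. Chromosome 18 had 23 proximal steady genes at -0.58, lower than either side of chromosome 13, and 58 at -0.06. Chromosomes 4 and 16 lay on the other side, at 0.33 and 0.53. On a log2 scale a ratio of 3 to 4 is -0.42 and a ratio of 4 to 5 is -0.32, so the means over days of chromosomes 3 and 13 lay between the latter and the former. On single days chromosome 13 also lay nearer to 0 than both, at -0.29 on day 1 and -0.31 on day 6. DNA copy number was not tested, and RNA does not measure it.

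All 19 KO libraries were below 0 on both chromosomes, from -0.51 to -0.21 on chromosome 3 and from -0.47 to -0.22 on chromosome 13. On day 0 the chromosome 3 medians of KO replicates 1, 3, 4 and 5 were -0.37, -0.27, -0.49 and -0.30, and those of the WT replicates, each set against the other WT libraries, were 0.19, 0.16, -0.58 and 0.05. On chromosome 13 the day 0 values were -0.31, -0.33, -0.44 and -0.29 in KO and 0.10, 0.12, -0.46 and 0.11 in WT. WT replicate 4 of day 0 was thus as low as the KO libraries and WT day 4 replicate 3 was at -0.31 and -0.27, and the other WT libraries lay above every KO library of their day. Leaving out WT day 0 replicate 4 moved the day 0 medians to -0.48 on chromosome 3 and -0.42 on chromosome 13.

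**Figure D2:**
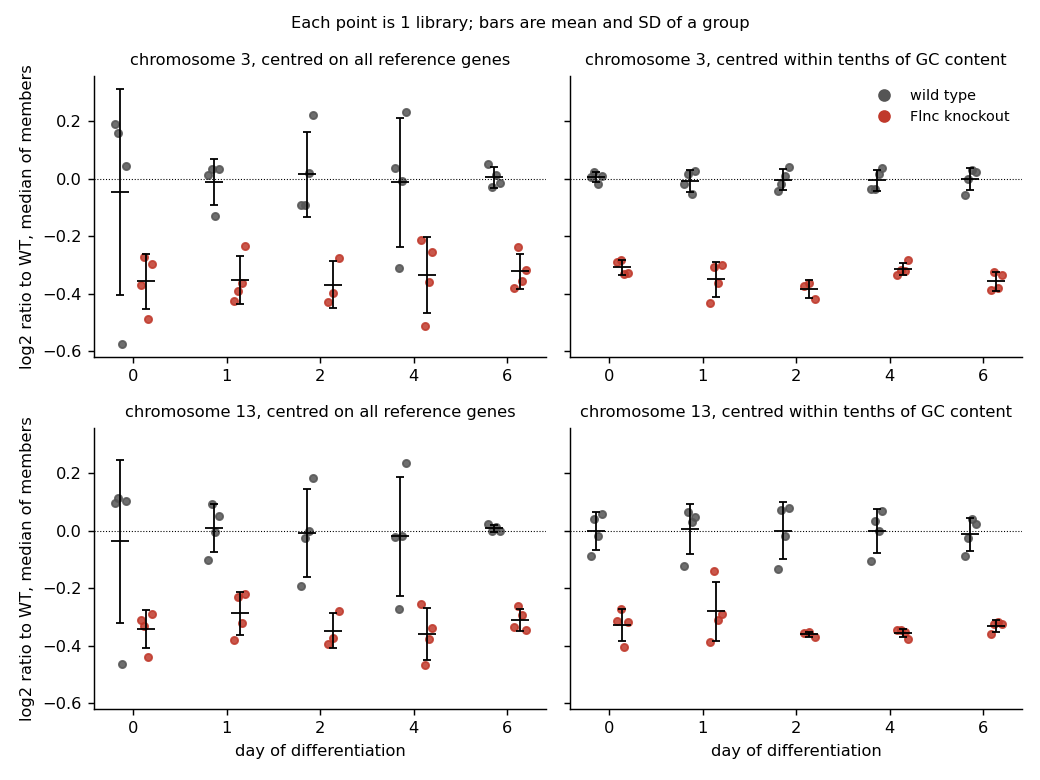
Centred chromosome median of every library under both centrings, on all reference genes and within 10 bins of transcript GC content, for chromosomes 3 and 13. With GC-matched centring the WT libraries of chromosome 3 lie from -0.06 to 0.04 and the KO libraries from -0.43 to -0.28.

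The low WT libraries were at the WT level once genes were compared at equal base composition, an alternative chosen after seeing the data. Transcripts of the members were poorer in GC than steady reference genes, with medians of 45.8% on chromosome 3 and 46.5% on chromosome 13 against 49.5%. With centring within 10 bins of transcript GC content, WT libraries ran from -0.06 to 0.04 on chromosome 3 and KO libraries from -0.43 to -0.28. On chromosome 13, WT libraries ran from -0.13 to 0.08 and KO libraries from -0.40 to -0.14. Neither chromosome then had an overlap between the genotypes, and WT day 0 replicate 4 was at -0.02 on both. The 5 WT replicate 1 libraries were all on the low side on chromosome 13, from -0.13 to -0.09. KO day 1 replicate 3, at -0.14 on chromosome 13, was the KO library nearest to WT.

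The level was shared by all replicate numbers. Averaged over days, KO replicates 1, 3, 4 and 5 had chromosome 3 medians of -0.36, -0.36, -0.39 and -0.28, and chromosome 13 medians of -0.33, -0.33, -0.36 and -0.29. Chromosome 16 was different in this respect, at 0.09 in KO replicate 1 and at 0.61, 0.63 and 0.82 in the others.

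Along chromosome 3 the ratio was low from end to end. In windows of 20 Mb the mean over days ran from -0.26 in the first window, with 6 members from Pex2 to Hps3, to -0.61 in the third window, with 13 members from Hspa4l to Siah2, and no window was above 0 on any day. The other 6 windows lay between -0.46 and -0.27. Single libraries varied more: 15 of 19 KO libraries were below 0 in the first window, and 18 or 19 in each other window. On single days the third window lay between -0.67 and -0.55, and with GC-matched centring its mean over days was -0.64. A search for the position that best divides the members into a lower and a higher side, with at least 15 members a side and a difference of at least 0.2 needed to accept it, accepted none on the mean over days. With at least 15 members a side, the search could not set off the 13 members of the third window. The best position lay between Ankrd50 and Hspa4l, with side medians of -0.23 and -0.36. Single days gave other positions: on day 0 the best was between Supt20 and Alg5, with the distal side 0.24 higher, but the same position gave 0.01, 0.00, -0.15 and -0.23 on days 1, 2, 4 and 6.

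Averaged over the days, the proximal end of chromosome 13 was closer to the WT level than the rest, and its distance changed with the day. The search accepted 1 position, between Tmem14c, ending at base 41022586, and Tbc1d7, starting at base 43151740 (GRCm38). The 31 proximal members had a median of -0.17 and the 92 distal members one of -0.41. On day 0 the library medians of these sides were alike, at -0.32 ± 0.07 and -0.36 ± 0.09 (mean and SD). The 10 members of the first 20 Mb, from Fam208b to Epdr1, had a window median of -0.42 on day 0, -0.20 on day 1, -0.17 on day 2, -0.03 on day 4 and 0.12 on day 6. The SD between libraries was 0.12, 0.33, 0.17, 0.47 and 0.13 on these days. Windows elsewhere moved with the day as well: from day 0 to day 6, 20 to 40 Mb of chromosome 3 went from -0.49 to -0.14. Likewise, 80 to 100 Mb of chromosome 16 went from -0.41 to -0.09. The 37 members between 40 and 60 Mb stayed between -0.40 and -0.39 on all days, and every other distal window had a mean over days between -0.42 and -0.25. The position was not stable: the best position of single days was the accepted one on day 1 only. It lay between Sirt5 and Ranbp9 on day 0, between Jarid2 and Dtnbp1 on day 2 and between BC005537 and Mrs2 on days 4 and 6. On days 0, 1 and 2 its difference was -0.08, -0.17 and -0.17, under the 0.2 needed. The same search also accepted a position on chromosomes 12, 16 and 18, with side medians 0.25, 0.82 and 0.52 apart, so the 0.24 of chromosome 13 was the smallest accepted difference. On chromosome 16 the best position, between Arl13b and Cggbp1, was the same on each of the 5 days. These searches describe the order of the members and carry no test.

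**Figure D3:**
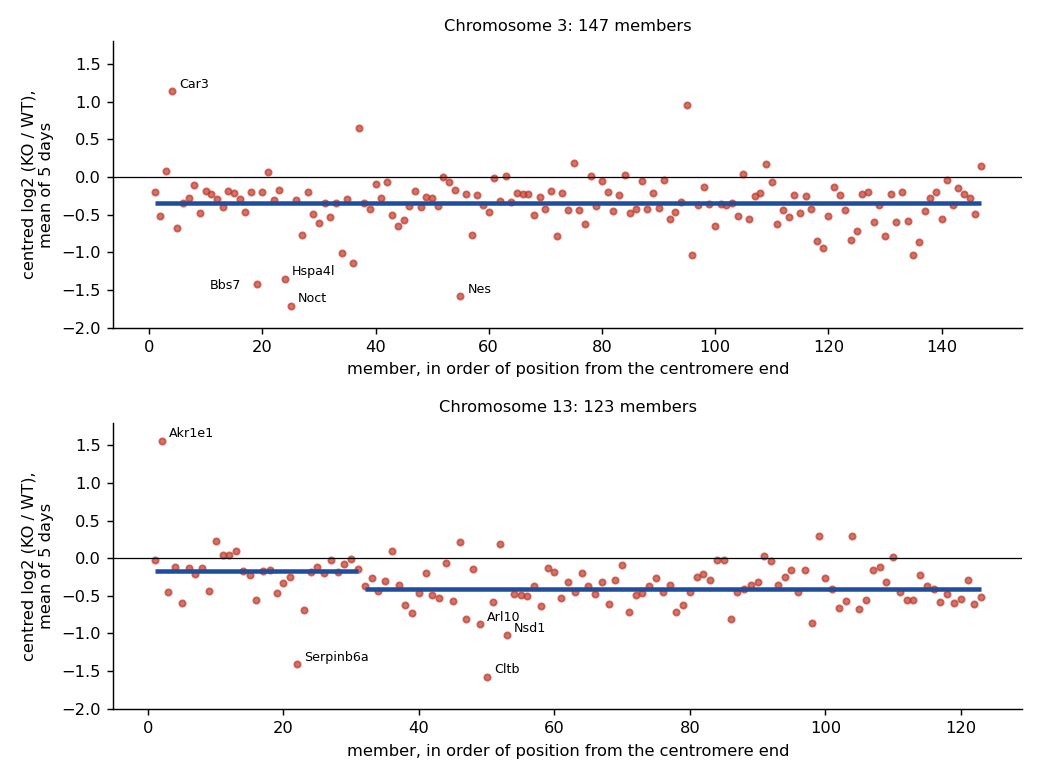
Centred log2 ratio of KO to WT (mean over days) of each member in order along chromosomes 3 and 13, with side medians as lines. Chromosome 3 has no accepted position and 1 line at its median of -0.34, and chromosome 13 has 31 proximal members at -0.17 and 92 distal members at -0.41.

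The low ratio was a shift of most members, not a large fall of a few. Over the days, 135 of 147 members on chromosome 3 (91.8%) and 111 of 123 on chromosome 13 (90.2%) had a centred ratio below 0, against 48.5% of 2625 steady reference genes. On each of the 5 days, 96 members (65.3%) and 76 members (61.8%) were below 0, against 21.6% of the reference genes. The quartiles of the members were -0.50 and -0.20 on chromosome 3 and -0.52 and -0.16 on chromosome 13, against -0.18 and 0.19 for the reference genes. Below -1, which is a ratio of 1 to 2, lay 8 members of chromosome 3 (Bbs7, Hspa4l, Nes, Noct, Nras, Siah2, Ssx2ip and Tsc22d2) and 3 of chromosome 13 (Cltb, Nsd1 and Serpinb6a). Of 2625 steady reference genes, 48 lay below -1. Genes of the same chromosomes that change during differentiation were low as well: the median was -0.39 over 301 expressed genes of chromosome 3 that are not steady and -0.30 over 198 of chromosome 13.

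**Figure D4:**
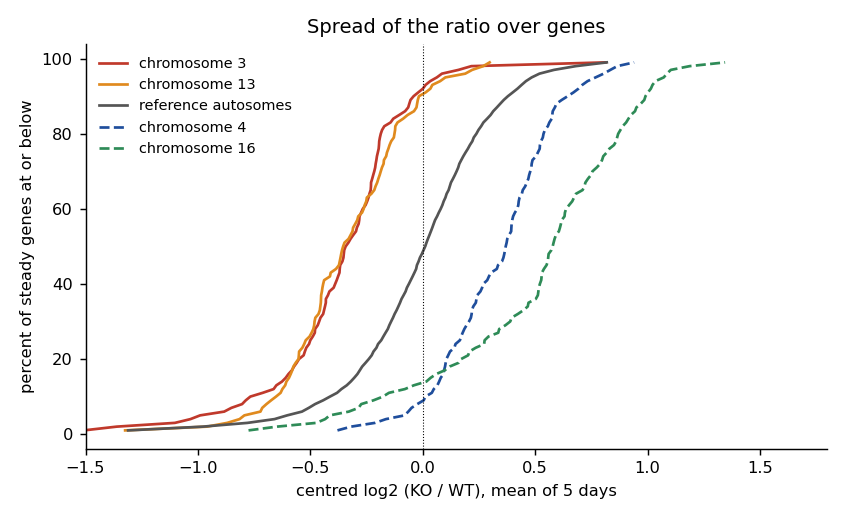
Cumulative distribution of the centred log2 ratio of KO to WT (mean over days) for members of chromosomes 3 and 13 and for steady reference genes. Dashed curves show steady genes of chromosomes 4 and 16. The curves of chromosomes 3 and 13 lie to the left of the reference curve over most of their length, with medians of -0.34 and -0.35 against 0.01.

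The order of the members within a chromosome was kept more closely between neighbouring days than between the first and the last. Across genes, the ratios of day 4 and day 6 had Pearson's r of 0.94 on chromosome 3 (147 genes) and 0.93 on chromosome 13 (123 genes), and those of day 0 and day 1 had 0.80 and 0.82. Days 0 and 6 had r of 0.22 and 0.29. These are descriptions across genes, which share libraries and are not independent replicates.

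Single members were tested with edgeR's quasi-likelihood test on all 13780 genes that passed the count filter, with Benjamini-Hochberg adjustment, and called at an adjusted p under 0.05. On days 0, 1, 2, 4 and 6, 34, 30, 33, 39 and 43 members of chromosome 3 were called lower in KO, where 9.09%, 9.93%, 10.3%, 14.2% and 14.4% of all genes tested were called lower. On chromosome 13 the counts were 29, 17, 14, 28 and 25 of 123 members. The shares of members on days 0 and 1 were 23.1% and 20.4% on chromosome 3 and 23.6% and 13.8% on chromosome 13. Among steady reference genes 5.33% and 5.49% were called lower on these days, a smaller share than among all genes. On day 2 the 14 members of chromosome 13 were close to the 10.3% of all genes. Members called higher were 0, 2, 2, 2 and 2 on chromosome 3 and 1, 2, 1, 1 and 2 on chromosome 13, where 6.46%, 8.1%, 7.64%, 13.3% and 14.5% of all genes were called higher. The 0 on day 0 was 1 member at an unadjusted edgeR p under 0.05 and 0 by DESeq2. With the replicate number as a block, the calls in both directions on chromosome 13 went from 19 to 31 on day 1 and from 15 to 24 on day 2. With the block, the share of all genes called also went up, to 12.0% lower and 9.92% higher on day 1 and to 12.5% lower and 9.98% higher on day 2. Without WT day 0 replicate 4, the day 0 calls went from 34 to 60 on chromosome 3 and from 30 to 49 on chromosome 13, and the share of all genes went up to 11.5% lower and 9.40% higher. Since the chromosomes were chosen on this contrast, the counts describe how far a shared shift of this size is seen gene by gene.

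Over the days, 69 members of chromosome 3 (46.9%) and 51 of chromosome 13 (41.5%) were called lower on at least 1 day, against 22.9% of all genes tested and 13.8% of steady reference genes. Called lower on all 5 days were 14 of 147 members of chromosome 3 (Bbs7, Capza1, Ctbs, Gdap2, Ints12, Metap1, Nes, Noct, Nras, Pip5k1a, Ppa2, Siah2, Ssx2ip and Ubqln4). On chromosome 13 they were 3 of 123 members (Cltb, Ptcd2 and Serpinb6a). Of all genes tested, 3.66% were called lower on all 5 days, a smaller share than on chromosome 3 but a larger one than on chromosome 13. Of 2625 steady reference genes 48 were, a smaller share than on either chromosome. Called higher on at least 1 day, as 21.7% of all genes were, were 6 members: Car3, Mbnl1 and Slc22a15 on chromosome 3, and Akr1e1, Ippk and Zkscan3 on chromosome 13. By the plainer count of members with every KO library below every WT library, chromosome 3 had 15, 46, 50, 28 and 49 members and chromosome 13 had 17, 27, 29, 19 and 27, against 8.3%, 11.5%, 12.6%, 12.0% and 14.7% of all genes.

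Nes (ENSMUSG00000004891, chr3:87971078-87980451, plus strand) encodes nestin, an intermediate filament protein of muscle and neural progenitors, and was the lowest member among those whose genotypes did not overlap. On day 0 WT replicates 1, 3, 4 and 5 had 1414, 1648, 1410 and 1853 CPM and KO replicates had 443, 358, 491 and 297 CPM. On day 6 WT replicates had 1545, 1595, 1299 and 1303 CPM and KO replicates had 827, 654, 600 and 445 CPM. Every KO library was below every WT library on all 5 days. Nes fell by 2.03 ± 0.19 (SE, from the spread between libraries) on the log2 scale on day 0 (edgeR adjusted p = 5.48e-07) and by 1.26 on day 6 (edgeR adjusted p = 0.000199), so it was far below the chromosome's shift on both days.

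Cltb (ENSMUSG00000047547, chr13:54592401-54611344, minus strand) encodes the clathrin light chain b of endocytic vesicles and was the lowest member of chromosome 13 by the same measure. On day 0 WT replicates had 74.4, 82.0, 94.1 and 89.3 CPM and KO replicates had 43.9, 49.1, 41.3 and 39.0 CPM. On day 6 WT replicates had 89.5, 84.2, 81.6 and 107 CPM and KO replicates had 32.8, 26.0, 21.2 and 22.0 CPM. The genotypes did not overlap on any day. Cltb fell by 1.02 on the log2 scale on day 0 (edgeR adjusted p = 0.00157) and by 1.91 on day 6 (edgeR adjusted p = 1.04e-07).

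Nras (chr3:103058285-103067914) encodes a small GTPase of growth factor signalling and was called lower on all 5 days. On day 0 WT replicates had 232, 239, 114 and 236 CPM, the lowest being the library that stood apart, and KO replicates had 104, 118, 91.1 and 122 CPM, so the groups overlapped through that 1 WT library. On day 1 WT libraries ran from 187 to 243 CPM and KO libraries from 107 to 126 CPM, without overlap. The log2 differences were -0.94, -0.87, -1.19, -1.27 and -0.97 on the 5 days. Bbs7, a subunit of the BBSome that carries cargo to cilia, had low counts in both genotypes. It ran from 5.66 to 11.1 CPM in WT and from 2.34 to 3.79 CPM in KO on day 0, without overlap. Its log2 differences were -1.59, -1.39, -1.84, -1.60 and -1.37.

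Siah2, a RING-type ubiquitin ligase, lay further below WT late than early. On day 0 WT replicates had 40.9, 35.2, 35.9 and 36.2 CPM and KO replicates had 21.0, 29.8, 23.2 and 23.5 CPM. On day 6 WT replicates had 35.8, 45.5, 32.4 and 38.4 CPM and KO replicates had 15.8, 11.8, 12.2 and 16.3 CPM. The genotypes did not overlap on either day, and the log2 difference grew by 0.88 in size between them (genotype-by-day term -0.88, edgeR adjusted p = 0.0465). Ssx2ip, a protein of centriolar satellites, fell on each of the 5 days, with log2 differences from -1.3045 to -0.78, and so did Ints12, a subunit of the Integrator complex, whose smallest difference was -0.72. Noct, which encodes nocturnin and was chosen for mention after its values were seen, fell from 32.0 to 11.8 CPM on day 0 and from 33.7 to 7.34 CPM on day 1 (group means, WT to KO).

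On chromosome 13, Serpinb6a, an intracellular inhibitor of serine proteases, had WT replicates of 888, 844, 663 and 972 CPM and KO replicates of 550, 621, 248 and 518 CPM on day 0. On day 6 its WT replicates had 664, 703, 622 and 1276 CPM and its KO replicates had 300.2, 234, 250.01 and 266 CPM. The genotypes did not overlap, and the log2 difference was -0.83 on day 0 (edgeR adjusted p = 0.0391) and -1.72 on day 6 (edgeR adjusted p = 1.83e-05). Ptcd2, a mitochondrial RNA-binding protein, fell on all 5 days by between 0.57 and 0.79. Iars, the isoleucyl-tRNA synthetase, fell on days 0, 1 and 2 by 1.08, 1.09 and 0.89, while on days 4 and 6 it was at -0.52 and -0.57 and was not called (edgeR adjusted p = 0.0855 and 0.0574). Nnt, the transhydrogenase that makes NADPH in mitochondria, fell by 0.47 on day 0 and by 0.99 and 0.96 on days 4 and 6. On day 1 Nnt was at -0.39 and not called without the replicate block (edgeR adjusted p = 0.0755), but was called with it (edgeR adjusted p = 0.0405). Ipo11, a nuclear import receptor, fell by 0.70 on day 0 and by 0.55 on day 6.

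Akr1e1, an aldo-keto reductase (chr13:4590750-4609174), went against its chromosome on every day. On day 0 WT replicates had 7.82, 6.32, 6.62 and 6.92 CPM and KO replicates had 27.1, 29.0, 19.8 and 27.3 CPM. Every KO library was above every WT library on all 5 days, and the log2 difference was 1.86, 1.74, 1.52, 1.52 and 1.42 (edgeR adjusted p = 4.91e-08 on day 0). Slc22a15, a membrane transporter, was the corresponding member on chromosome 3. It had 11.9, 6.96, 9.62 and 7.40 CPM in WT and 33.8, 15.9, 21.5 and 20.9 CPM in KO on day 1, a log2 difference of 1.36 without overlap. On day 0 it was at 0.44 and was not called without the replicate block (edgeR adjusted p = 0.233), but was with it (edgeR adjusted p = 0.0394).

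The members nearest to the chromosome medians show what the shared shift looks like in 1 gene. Alg5, a glycosyltransferase of the endoplasmic reticulum that readies sugars for N-glycosylation, had WT replicates of 54.9, 56.4, 64.3 and 55.6 CPM and KO replicates of 54.3, 45.2, 46.0 and 37.9 CPM on day 0. On day 6 its WT replicates had 33.6, 42.5, 56.8 and 46.1 CPM and its KO replicates had 47.8, 39.4, 33.9 and 37.4 CPM. The KO libraries were all lower on day 0 and mixed with WT on day 6, and Alg5 was not called on any day, though with the replicate block it was on day 2 (log2 difference -0.56, edgeR adjusted p = 0.0314). Zcchc9, a zinc finger protein, had WT replicates of 27.6, 31.2, 10.3 and 25.9 CPM and KO replicates of 20.2, 21.2, 9.56 and 20.2 CPM on day 0. Replicate 4 was low in both genotypes, the groups overlapped, and no day was called (log2 differences -0.54 to -0.25).

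**Figure D5:**
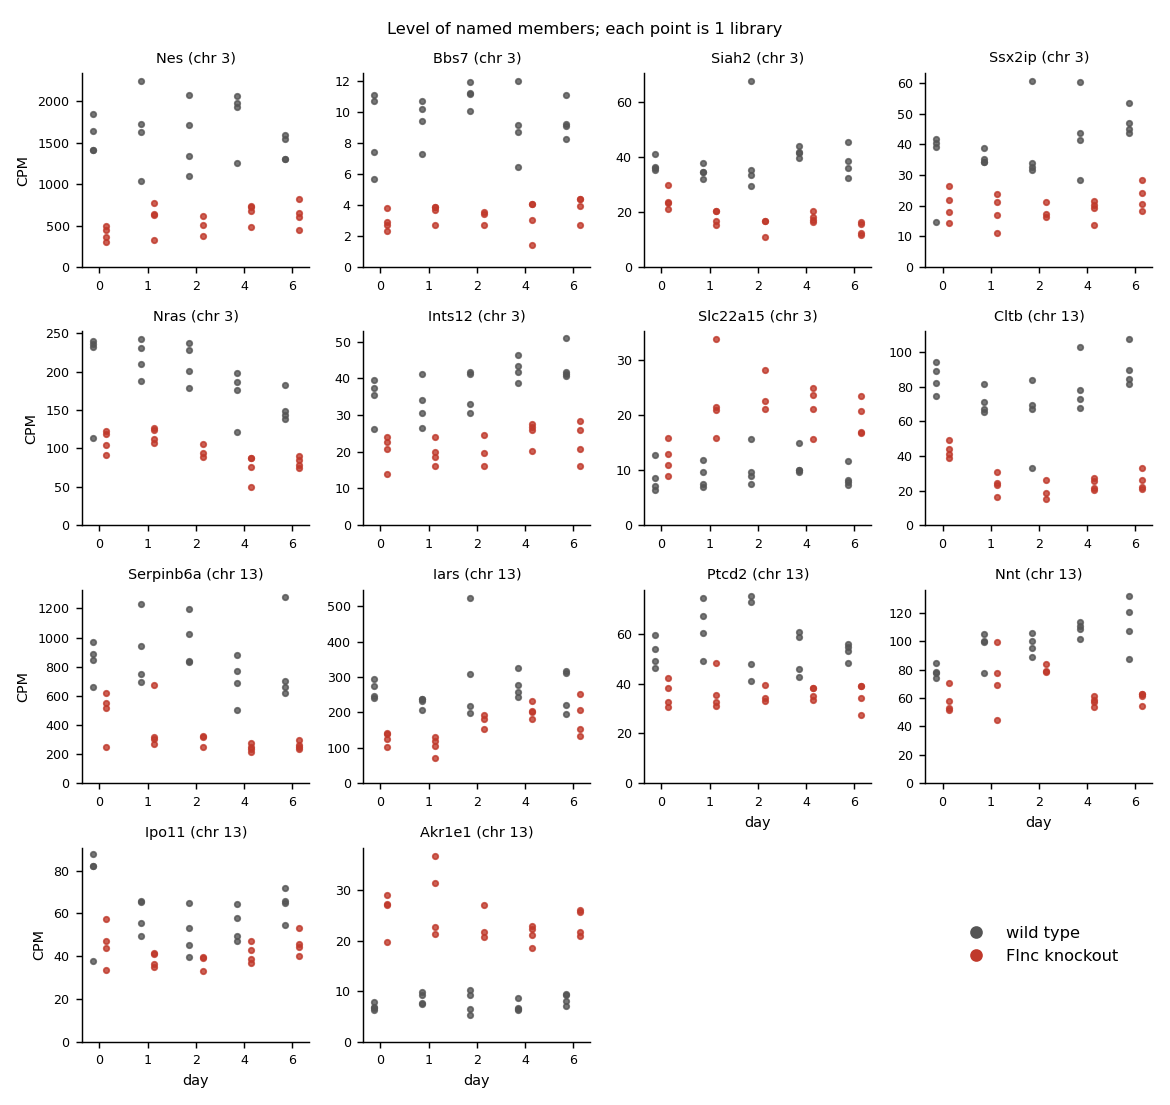
CPM of single libraries by day for named members of chromosomes 3 and 13, WT and KO, on axes from 0. Nes and Cltb have every KO library below every WT library on all 5 days, and Akr1e1 has every one above.

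Grouped by task, the members had a negative median in each of 8 role lists, from -0.61 to -0.24. The lists were drawn up with earlier results of these data known and are described by counts only, and differences between lists were not tested. Over all 270 members the median of the mean log2 difference was -0.37, 120 were called lower and 6 higher on at least 1 day. Over 2625 steady reference genes the median was 0.00, with 362 called lower and 278 higher. Of 13 members in translation, all were below 0 with a median of -0.27, and 2 were called lower. Rps3a1, Rpl34, Rps23 and Btf3, which are ribosomal proteins or bind nascent chains, and the cap-binding factor Eif4e were not called on any day. Of 11 members in RNA processing, 10 were below 0 with a median of -0.27. Of these 11, 2 were called lower, and the splicing regulator Mbnl1 was called higher on day 1 (0.88, edgeR adjusted p = 0.0365) and day 2 (0.96, edgeR adjusted p = 0.0309), and with the replicate block also on day 0 (0.74, edgeR adjusted p = 0.0462).

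Of 7 members of the ubiquitin and proteasome list, all were below 0 with a median of -0.45, and 5 were called lower. Psmb4, a subunit of the proteasome core, had 177, 195, 268 and 221 CPM in WT and 224, 305, 188 and 209 CPM in KO on day 0, fully mixed. On day 6 it had 184, 182, 296 and 266 CPM in WT and 122, 128, 106 and 138 CPM in KO, without overlap, and fell by 0.98 on the log2 scale (edgeR adjusted p = 0.0164). Psmd4, a ubiquitin receptor of the proteasome, fell by 0.71 on day 6 (edgeR adjusted p = 0.0153). Of 8 members of the secretory list, all were below 0 with a median of -0.41, and 4 were called lower. Among them were the cargo receptor Lman2, which fell by 0.82 on day 2, and Tmed9, a protein of vesicles between the endoplasmic reticulum and the Golgi, which fell by 0.70 on day 6.

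Of 12 members in chromatin and transcription, 11 were below 0 with a median of -0.30, and 4 were called lower. The histone methyltransferase Nsd1 fell by 1.49 on day 0 (edgeR adjusted p = 0.00126). The Mediator subunit Med10 was at -0.12 on day 0 (edgeR adjusted p = 0.817) and fell by 1.24 on day 4 (edgeR adjusted p = 0.00133). The nuclear pore protein Nup153 fell by 1.10 on day 0. Of 9 members in signalling and cytoskeleton, all were below 0 with a median of -0.51, and 5 were called lower, including Nras and Serpinb6a above. Of 6 members in mitochondrial metabolism, 5 were below 0 with a median of -0.24, 2 were called lower, and the respiratory chain subunits Sdha and Uqcrfs1 were not called on any day. Of 4 members in DNA repair and cell cycle, all were below 0 with a median of -0.61, and 3 were called lower.

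Each library of a contrast was also left out in turn. Of 111 calls of named genes on single days, 69 held whichever library was left out, 42 were lost with at least 1 left out, and none changed sign. Nes, Cltb, Nras, Bbs7, Ints12, Akr1e1 and Slc22a15 kept every call given above. On day 0 the calls of Siah2, Ssx2ip, Serpinb6a, Ptcd2 and Nnt were lost with 5 or 6 of the 8 libraries (edgeR adjusted p up to 0.0854, 0.107, 0.146, 0.121 and 0.0995), and those of Mbnl1 on days 1 and 2 with 6 and 5 libraries (up to 0.114 and 0.149). On day 2, leaving out WT replicate 4 put Iars at -0.50 (edgeR adjusted p = 0.119) and Lman2 at -0.48 (edgeR adjusted p = 0.0959), while KO replicate 3 cost the call of Iars (0.0683) and KO replicate 5 that of Lman2 (0.0681). On day 4 the call of Ptcd2 was lost without WT replicate 3 (0.0527) or 4 (0.0612). On day 6 WT and KO replicate 4 each cost the call of Psmb4 (0.0546 and 0.0531) and WT and KO replicate 1 each that of Ipo11 (0.0605 and 0.0546), all as edgeR adjusted p. Offsets for transcript GC content ended the day 0 calls of Serpinb6a (-0.86, edgeR adjusted p = 0.0665) and Ptcd2 (-0.50, edgeR adjusted p = 0.0705).

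Within the KO cells, the members were about as steady over differentiation as steady genes elsewhere. The largest of the 5 KO day means was at most 1.5 times the smallest in 90 of 147 members (61.2%) on chromosome 3 and in 63 of 123 (51.2%) on chromosome 13, against 56.8% of the reference genes. Between KO day 6 and KO day 0, 17 members of chromosome 3 fell and 28 rose, and 13 of chromosome 13 fell and 22 rose, where 23.1% of all genes tested were called lower and 20.5% higher. Among steady reference genes 13.9% fell and 15.8% rose. With offsets for transcript GC content the balance turned, to 29 lower and 19 higher on chromosome 3 and 18 lower and 14 higher on chromosome 13, and the cause was not tested.

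Few members were called for a KO to WT difference that changed with the day. The term tested includes the WT change between days, which the steadiness rule had limited. A smaller share than among all genes was thus partly fixed in advance, and no share for steady reference genes is given. Few calls do not show that the differences stayed the same. Across members, the ratios of days 0 and 6 had Pearson's r of only 0.22 on chromosome 3 and 0.29 on chromosome 13. The genotype-by-day term of day 6 against day 0 was called for 6 members of chromosome 3, among them Car3, Cdc42se1, Ptbp2, Rfxap and Siah2, and 3 of chromosome 13 (Cdk20, Spin1 and Zkscan3), where 9.95% of all genes tested were called. For day 4 it was called for 6 members of chromosome 3 and 1 of chromosome 13, Tpmt (7.66% of all genes). Car3, a carbonic anhydrase of slow muscle fibres, had group means of 38.3 CPM in WT and 25.2 CPM in KO on day 0 and of 33.1 and 193 CPM on day 6. It was chosen for mention after its values were seen. Its log2 difference was -0.61 on day 0 (edgeR adjusted p = 0.355) and 2.46 on day 6 (edgeR adjusted p = 7.89e-05), so the gene stood far above its chromosome late and near it early. Cdc42se1, which binds the GTPase Cdc42, had a log2 difference of -0.89 on day 0 and of 0.07 on day 6.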

How the data were processed

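Gene-level counts were deposited for 39 libraries of 10 groups. Per the submitters' processing notes, the authors used FastQC 0.11.9, STAR 2.7.9, featureCounts 2.0.3 and DESeq2 with builds GRCm38 and GRCh38; the role of the second, the annotation and the strand setting are not given in the sources used here. Where strand was ignored, overlapping genes would share reads. Of the deposited count values above 0, 64.4% were even, and 1 column that matches no sample was not used. All 29980 identifiers matched GENCODE M21 (GRCm38). Groups came from the labels.

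CPM (count over library total) was computed here. Tests used edgeR 4.0.16 (quasi-likelihood, TMM, filterByExpr, 1 model of 10 groups) and limma 3.58.1 in R 4.3.3, with Benjamini-Hochberg adjustment over 13780 genes; DESeq2 1.42.0 was an alternative. Log2 differences are edgeR estimates. Standard errors come from the spread of log2 CPM between libraries. Scripts were checked on simulated data. Counting error is smallest in the deepest libraries, and totals ran from 6838281 to 28902526.

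The members, role lists and chromosomes were chosen with earlier results of these data known. Named genes are, per chromosome, up to 6 lowest and 4 highest members whose genotypes do not overlap on at least 4 days, the 3 of each role list with the highest WT mean, the 3 nearest the median, those beside an accepted position and those at the steadiness limit, and Flnc. Others are marked as chosen after their values were seen, and some results are not reported here. Alternatives covered scaling, centring, filters, steadiness limits, tools, left-out libraries and GC content.

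Libraries with the same replicate number deviated together across genotypes: every pair's correlation was over 0.1 on days 0 (0.134 to 0.339), 1 (0.287 to 0.568), 2 (0.133 to 0.393) and 4 (0.126 to 0.506), but not on day 6 (-0.017 to 0.189) or between KO days 6 and 0 (0.052 to 0.244).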

Additional observations from a re-analysis of the deposited data

Results flagged for a closer look

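Of 144 groups of 4 libraries searched, 15 had 1 library whose gap to its nearest neighbour was over 0.829 of the group's range, and chance gives about 1 in 20. For chromosome medians these were WT day 1 replicate 4 on chromosome 3 (-0.13) and WT day 0 replicate 4 on chromosome 13 (-0.46). WT day 0 replicate 4 was also apart for Ssx2ip (14.7 CPM), Nras (114 CPM) and Ipo11 (37.5 CPM), the low side each time.

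The other single libraries were WT day 4 replicate 4 for Nes (1251 CPM), KO day 1 replicate 5 for Bbs7 (2.74 CPM), WT day 0 replicate 1 and WT day 2 replicate 4 for Siah2 (40.9 and 67.6 CPM), WT day 2 replicate 5 for Ssx2ip (60.7 CPM), WT day 6 replicate 4 for Ints12 (50.9 CPM), WT day 4 replicate 1 for Slc22a15 (14.9 CPM) and WT day 4 replicate 5 for Akr1e1 (8.60 CPM). For Serpinb6a they were WT day 6 replicate 5 (1276 CPM) and KO day 1 replicate 3 (676 CPM).

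The KO to WT difference changed between days by edgeR's genotype-by-day term for 3 named genes. It moved by -0.88 on the log2 scale for Siah2 on day 6 (edgeR adjusted p = 0.0465), by 0.83 and 0.97 for Cdc42se1 on days 4 and 6 (edgeR adjusted p = 0.0171 and 0.00367), and by 0.90 for Zkscan3 on day 6 (edgeR adjusted p = 0.0116).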

How the results depend on the processing

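All chromosome medians stayed below 0 under every alternative run. Leaving out WT day 0 replicate 4 and KO day 1 replicate 3 gave -0.48 on chromosome 3 and -0.42 on chromosome 13 on day 0, genes that are not steady gave -0.42 on chromosome 3 on day 6, and no centring gave -0.27 on chromosome 13 on day 6. Leaving out 1 replicate at a time gave medians on days 0, 1, 2, 4 and 6 of -0.48 to -0.30, -0.39 to -0.33, -0.41 to -0.32, -0.42 to -0.27 and -0.35 to -0.30 on chromosome 3, and of -0.42 to -0.31, -0.31 to -0.26, -0.39 to -0.29, -0.42 to -0.30 and -0.33 to -0.30 on chromosome 13.

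Counts of called members depended on the fit. Chromosome 3 had 34, 32, 35, 41 and 45 calls on the 5 days and chromosome 13 had 30, 19, 15, 29 and 27. Leaving out 1 replicate at a time gave 17 to 60, 22 to 31, 19 to 33, 34 to 46 and 34 to 41 on chromosome 3, and 16 to 49, 13 to 22, 6 to 15, 22 to 28 and 15 to 25 on chromosome 13. For KO day 6 against KO day 0 it gave 25 to 40 (45 with all) and 23 to 34 (35 with all). Moves of over 1.5 times came on day 0 from WT replicates 3, 4 and 5 (both chromosomes), WT replicate 1 and KO replicates 1 and 4 (chromosome 3) and KO replicate 3 (chromosome 13), on day 2 from KO replicates 3 and 5 (both), on day 6 from KO replicate 4 (chromosome 13), and between KO days from day 0 replicate 3 (both) and day 6 replicates 3 and 4 (chromosome 3). The share of all genes called lower moved too. On day 0 it ran from 6.66% without WT replicate 5 to 11.5% without WT replicate 4. On day 2 it was 6.73% and 6.18% without KO replicates 3 and 5. Fits of only the groups compared gave 11, 15 and 22 on chromosome 3 on days 0, 1 and 2, and 14, 6, 8, 19 and 45 on chromosome 13 on the 5 days; the share of all genes called lower moved the same way, to 6.77% on day 0 and 20.2% on day 6 (9.09% and 14.4% with all groups). Tests against a 1.2-fold change gave 16, 17, 21 and 29 on chromosome 3 on days 0, 1, 2 and 6, and 18, 9, 9, 17 and 16 on chromosome 13, with 23 and 23 between KO days. The share of all genes was also smaller, at 6.8% lower and 4.5% higher on day 0 and 12.0% lower and 11.5% higher on day 6. No count filter gave 22 on chromosome 3 on day 2, 11 on chromosome 13 on day 1 and 27 between KO days on chromosome 3. Without the filter 5.96% of all genes were called lower and 4.84% higher on day 1, and 5.83% lower and 4.6% higher on day 2. Leaving out both libraries that stood apart gave 70 and 58 on day 0, with 14.5% of all genes called lower and 12.1% higher. The cause of these moves was not tested.

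The replicate block gave 31 and 24 on chromosome 13 on days 1 and 2. A replicate block within each day gave 66, 63, 54 and 72 on chromosome 3 on days 0, 1, 2 and 4, and 58, 49, 36, 52 and 46 on chromosome 13, while the share of all genes called rose from 9.09% to 15.8% lower and from 6.46% to 13.2% higher on day 0 and from 14.4% to 19.0% lower on day 6. GC offsets gave 24 and 41 on chromosome 13 on days 2 and 6. With these offsets 12.1% of all genes were called lower and 9.9% higher on day 2, and 17.2% lower and 16.0% higher on day 6. GC offsets with the replicate block within each day gave 73, 68, 58, 71 and 77 on chromosome 3 and 56, 53, 39, 55 and 58 on chromosome 13 (17.5% of all genes called lower on day 0, 21.3% on day 6).

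For the dividing position, the chromosome 3 difference was 0.24 at the best position of day 0 and -0.25 at that of day 6. On chromosome 13 a threshold of 0.3 did not accept its -0.24, the position chosen on day 0 gave -0.16, and the best positions of days 0, 1 and 2 gave -0.0782, -0.17 and -0.17. Of the named genes' differences, 18 changed sign, all close to 0: Hipk1 on day 2 (0.0841) and Ash1l on day 6 (0.0195) with the replicate block within each day; Rps3a1 on day 0 (-0.042 with the replicate block, -0.0725 within each day) and day 1 (-0.11 within each day); Commd2 on day 1 (-0.0533 with the replicate block, -0.17 within each day). With the replicate block Uqcrfs1 on day 0 was at -0.0043 and Tbc1d7 on day 0 at 0.0144 (0.0729 within each day), and Btf3 was at -0.0803 on day 1 within each day and at 0.0118 on day 0 with GC offsets. GC offsets put Tmed9 at 0.0044 and 0.0302 on days 0 and 1, Cdk7 at 0.049 on day 1 and Tmem14c at 0.0078 on day 1, and Tmem14c was at 0.0181 with DESeq2 and 0.0182 with its size factors.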
